A study of Mus musculus with 16 samples.

Results

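The E13.5 libraries of the series come from mouse organ of Corti progenitors, which give rise to the hearing epithelium, sorted by FACS as p27-GFP positive. They are 7 of 16 samples: 2 for RNA-seq, 3 for ATAC-seq and 2 for CUT&RUN of H3K27ac, histone H3 acetylated at lysine 27. All 7 share the reporter and the labelled age, which the protocols round to E13, and no genetic or drug treatment is named for them. The labels do not describe the reporter allele, the strain or the sex, nor do they state pooling or litters for the replicates, so the spread between libraries may be technical. The E12.0 libraries, of Sox2-GFP positive cells, were not used. Here 21151 of 21896 protein-coding genes of the RefSeq table (GRCm38.p6) were matched to the RNA tables and ranked by their mean TPM (a share of the library's transcripts, scaled by gene length) over the 2 RNA libraries. They were then compared for ATAC and H3K27ac peaks at the ends of the gene.

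At this age the prosensory domain of the cochlear duct leaves the cell cycle, a step marked by Cdkn1b, the gene of the cell cycle inhibitor p27. Active genes usually have an accessible start, where nucleosomes give way to transcription factors and polymerase, and ATAC-seq reads this with a transposase that cuts open DNA. H3K27ac is laid down by co-activators such as p300 and CBP beside active starts and enhancers. In many tissues CpG-rich starts of developmental regulators are accessible but lack this acetylation while they are held by Polycomb complexes.

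Promoter sequences of 8 genes are shown because the comparison turns on how RNA, opening and base composition go together. Each is the 250 bases before a RefSeq start of GRCm38.p6, written 5′ to 3′ on the gene's strand, with every CpG pair in capitals. Cdkn1b (chr6:134920151-134920400, plus strand) is the gene of the sorting reporter. Eef1a1 (chr9:78481725-78481974, minus strand), encoding the translation elongation factor, was the most abundant RNA. H3f3b (chr11:116024505-116024754, minus strand) encodes a variant histone H3 that is made outside S phase, and its RNA was abundant although the ends of its span had no peak.
Cdkn1b: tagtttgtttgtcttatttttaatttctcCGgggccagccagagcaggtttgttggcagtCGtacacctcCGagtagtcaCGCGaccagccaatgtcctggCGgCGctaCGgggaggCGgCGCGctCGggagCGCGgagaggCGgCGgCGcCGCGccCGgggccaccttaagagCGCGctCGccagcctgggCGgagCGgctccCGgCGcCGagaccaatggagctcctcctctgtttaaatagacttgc
Eef1a1: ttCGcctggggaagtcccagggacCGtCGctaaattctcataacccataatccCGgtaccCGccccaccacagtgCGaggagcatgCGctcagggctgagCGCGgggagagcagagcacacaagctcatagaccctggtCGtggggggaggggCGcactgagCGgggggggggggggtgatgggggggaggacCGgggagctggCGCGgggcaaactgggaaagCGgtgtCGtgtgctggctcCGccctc
H3f3b: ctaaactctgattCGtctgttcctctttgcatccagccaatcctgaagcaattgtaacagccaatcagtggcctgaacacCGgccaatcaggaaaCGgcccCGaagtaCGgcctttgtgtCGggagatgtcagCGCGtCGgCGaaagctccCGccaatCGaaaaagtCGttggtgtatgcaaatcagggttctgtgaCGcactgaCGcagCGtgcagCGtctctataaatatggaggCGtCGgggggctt
Iqca (chr1:90153437-90153686, minus strand) and Tekt3 (chr11:63061409-63061658, plus strand), which encodes a tektin of the ciliary or flagellar axoneme, had no RNA count but an open and acetylated start.
Iqca: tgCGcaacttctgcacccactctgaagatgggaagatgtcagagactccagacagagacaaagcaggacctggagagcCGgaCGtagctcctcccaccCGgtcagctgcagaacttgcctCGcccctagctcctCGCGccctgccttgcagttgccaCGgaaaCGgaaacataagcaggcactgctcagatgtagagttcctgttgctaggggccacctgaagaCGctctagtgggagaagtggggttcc
Tekt3: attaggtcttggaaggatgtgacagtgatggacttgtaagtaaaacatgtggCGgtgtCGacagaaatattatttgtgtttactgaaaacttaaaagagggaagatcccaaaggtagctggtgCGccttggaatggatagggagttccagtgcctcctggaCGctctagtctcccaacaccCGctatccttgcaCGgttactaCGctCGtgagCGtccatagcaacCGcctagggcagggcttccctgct
Hoxd1 (chr2:74762730-74762979, plus strand) and Cebpa (chr7:35119043-35119292, plus strand), transcription factors of axial patterning and of liver, fat and myeloid cells, had no RNA count and an open start without H3K27ac. The odorant receptor gene Olfr1 (chr11:73399496-73399745, minus strand) had neither RNA nor a peak.
Hoxd1: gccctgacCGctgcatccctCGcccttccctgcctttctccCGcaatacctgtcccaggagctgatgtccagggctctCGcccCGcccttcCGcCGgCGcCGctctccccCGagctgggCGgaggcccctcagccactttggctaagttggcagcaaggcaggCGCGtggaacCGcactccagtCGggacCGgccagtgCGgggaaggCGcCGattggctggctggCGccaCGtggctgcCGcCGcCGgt
Cebpa: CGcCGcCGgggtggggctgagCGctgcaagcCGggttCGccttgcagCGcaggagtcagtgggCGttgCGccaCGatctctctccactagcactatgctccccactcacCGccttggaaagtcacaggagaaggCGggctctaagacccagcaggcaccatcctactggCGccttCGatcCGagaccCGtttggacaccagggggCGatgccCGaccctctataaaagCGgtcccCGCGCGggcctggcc
Olfr1: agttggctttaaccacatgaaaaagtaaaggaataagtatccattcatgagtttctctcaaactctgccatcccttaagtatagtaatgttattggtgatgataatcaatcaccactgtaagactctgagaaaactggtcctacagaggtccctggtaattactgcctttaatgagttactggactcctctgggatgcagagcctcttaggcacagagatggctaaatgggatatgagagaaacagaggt
These stretches held 28 CpG pairs in Cdkn1b, 18 in Eef1a1 and 19 in H3f3b. They held 10 each in Iqca and Tekt3, 24 in Hoxd1, 22 in Cebpa and 0 in Olfr1.

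The RNA libraries held 17057751 and 19570946 expected counts, and log2(TPM + 1) correlated across the ranked genes with r = 0.986, a description in which the genes are not independent. The ATAC lists held 212929, 208061 and 226496 peaks. The H3K27ac lists were unequal: list 1 held 118017 peaks covering 42.9 Mb and list 2 held 76022 covering 19.8 Mb, and 59.4% against 26.3% of their peaks had a −log10 q of at least 2. The depth behind the peak lists is unknown, so the shares of the RNA classes with H3K27ac are given for each list. Some other H3K27ac results are given for list 1 only, where it is named. Some gene lists were written for other cell types, though their members need not be absent from the sorted cells themselves. The summed level of 6 melanocyte genes was 2.94 TPM in RNA replicate 1 and 28.9 TPM in replicate 2. The summed level of 8 endothelial genes was 10.9 and 21.8 TPM (Egfl7 alone 10.2 and 20.0, with Cdh5, Kdr, Tek, Tie1 and Cldn5 silent), that of 11 erythroid genes 4.93 and 4.54 TPM (mostly Alas2, with Gata1, Hbb-bh1, Hbb-bt and Hbb-y among those at 0), and that of 11 immune genes 8.56 and 2.12 TPM (mostly Cd68, with C1qa, C1qb, C1qc, Cx3cr1, Fcgr1 and Tyrobp at 0). Larger sums came from a few genes. They were 583 and 705 TPM for 12 mesenchyme genes (Lum and Dcn above all, with Tbx15 at 0 and Twist1 at 0 and 0.129 TPM), 169 and 134 TPM for 16 neuronal genes (mostly Isl2, with Neurog1, Neurod4 and Prph at 0), and 356 and 362 TPM for 6 glial and neural crest genes (mostly Erbb3 and Sox10). Their part in the results below was not tested. In these bulk libraries fewer cells of a type and less RNA per cell cannot be told apart.

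The sorted cells carried the RNA of Cdkn1b, the gene of their sorting reporter, and of Sox2, which the labels name for the E12.0 cells only. Cdkn1b stood at 119 and 97.9 TPM (108.6 ± 15.2, SD, n = 2), rank 1824 of the genes. Its start had ATAC peaks in all 3 lists, with folds over local background of 8.92, 4.25 and 10.9, and H3K27ac peaks in both lists, with folds of 7.68 and 2.95. Sox2, a factor needed to form the prosensory domain, stood at 181 and 196 TPM, rank 831. The Sox2 start had ATAC folds of 8.11, 7.20 and 7.22, and its H3K27ac peak was in list 1 only and at the far end of its short span. All 23 genes of a prosensory list had an ATAC peak in every list at 1 end, beside 64.5% of all ranked genes and 93.0% of the most expressed class described below, to which 18 of them belong. H3K27ac marked 18 of the 23 (78.3%) in list 1, beside 84.5% of that class, and 4 in list 2. Among them were Gata3 at 1310 and 1432 TPM, the Notch ligand gene Jag1 at 387 and 412 TPM, and Isl1 at 923 and 820 TPM. Lgr5, a Wnt-responsive receptor gene, stood at 280 and 250 TPM. The prosensory list, like the other gene lists, was chosen with earlier results of these data known.

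Genes were divided into 4 classes. Silent genes, with a mean under 0.1 TPM, numbered 6828 (32.3%), and 5791 of them had no expected count in either library. A count of 0 still allows 3 counts, which for the median gene without a count is 0.349 TPM in replicate 1 and 0.303 TPM in replicate 2, above the limit itself; this covers counting error only. The other genes were split by rank into classes of equal size: low (4774 genes, up to 8.37 TPM), middle (4774 genes, up to 42.7 TPM) and high (4775 genes, up to 6711 TPM). The high class held 85.6% of the TPM of all ranked genes. A total of 1525 genes lay under the silent limit in 1 RNA library and above it in the other. Just inside the limit lay Stkld1 (0.107 and 0.0929 TPM), Rgs20 (0.200 and 0 TPM) and Hsf5; just outside lay Creb3l3, 4930512M02Rik and Gabra4. Stkld1, Rgs20 and Gabra4 were open, and Hsf5, Creb3l3 and 4930512M02Rik had no ATAC peak, so both states occur on each side of the limit.

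Open chromatin at gene ends followed RNA level up to a plateau. An ATAC peak overlapped the 500 bp on either side of a gene end in 25.6, 25.7 and 25.9% of silent genes in the 3 lists (mean 25.7 ± 0.154%, SD, n = 3). The low class reached 75.7 ± 0.277%, the middle class 90.7 ± 0.115% and the high class 93.5 ± 0.105%. The classes did not overlap in any list, and every step exceeded the spread between lists. A gene was called open when all 3 lists had a peak at the same end, which held for 64.5% of all ranked genes. By class it held for 21.5% of silent, 72.4% of low, 89.8% of middle and 93.0% of high genes.

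**Figure D1:**
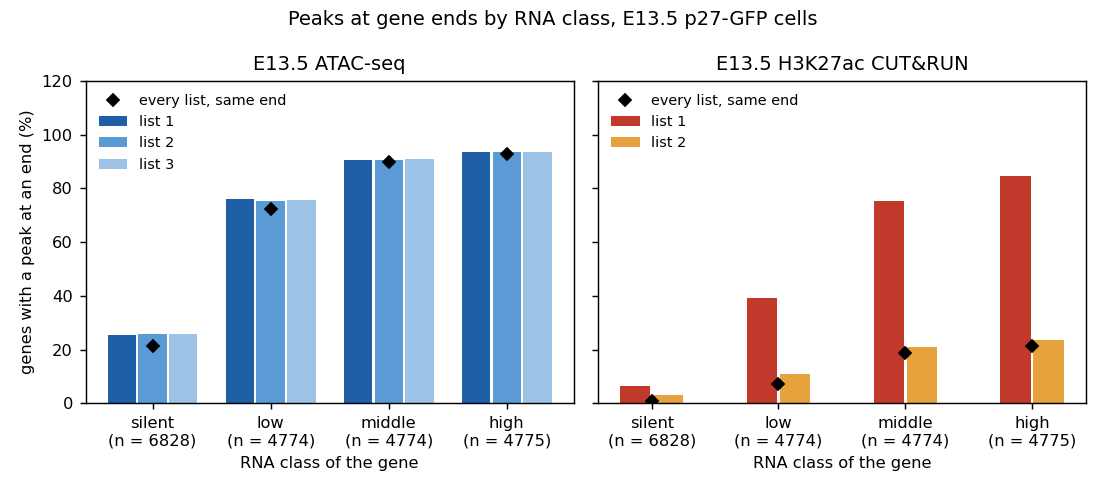
Percentage of genes with a peak at an end (vertical axis) in 4 RNA classes, with a bar for each peak list of ATAC (left) and H3K27ac (right), and a diamond for genes with a peak in every list at the same end. ATAC bars rise from about 25.7% of silent to 93.5% of high genes with hardly any spread between lists, while H3K27ac list 1 reaches 84.5% and list 2 only 23.5%.

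H3K27ac rose over a wider range of RNA level. In list 1, where 47.0% of all ranked genes had a peak at an end, it marked 6.43% of silent, 39.1% of low, 75.3% of middle and 84.5% of high genes. In list 2, where 13.52% of all ranked genes had one, the shares were 3.25, 10.9, 20.9 and 23.5%. The order of the classes was the same in both lists, but at each class from low upward the lists differed by more than list 2's whole rise from silent to high. Both lists marked the same end in 11.0% of all ranked genes, and in 0.908% of silent, 7.29% of low, 18.6% of middle and 21.5% of high genes. Counts that ask for both lists are therefore bounded by list 2.

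**Figure D2:**
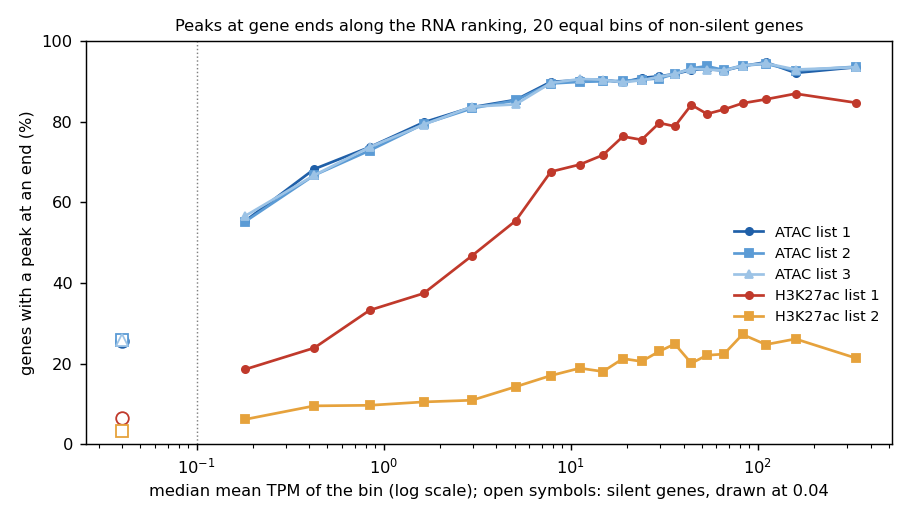
Percentage of genes with a peak at an end (vertical axis) against the median TPM of 20 equal bins of non-silent genes (log scale), with a line for each list and open symbols for silent genes. ATAC lists level off near 90% from the bin at 7.82 TPM, while H3K27ac list 1 goes on rising from 67.6% there to 87.0% at 159 TPM.

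Along the ranking of the non-silent genes in 20 equal bins, the lowest bin (median 0.181 TPM) already had ATAC peaks in 55.2 to 56.6% of its genes. The share reached 89.5 to 90.0% at 7.82 TPM and lay between 89.8 and 94.8% in all higher bins. H3K27ac in list 1 rose from 18.5% in the lowest bin to 67.6% at 7.82 TPM and was 84.8% in the highest bin, at a median of 333 TPM. In list 2 it went from 6.14% to 17.0% and 21.4% in the same bins. Of open genes, list 1 acetylated 21.4% of silent, 51.3% of low, 82.3% of middle and 89.8% of high genes. For list 2 these shares were 6.55, 13.52, 22.6 and 25.04%. Conversely 98.8% of high and 71.5% of silent genes with H3K27ac in list 1 were open. For list 2 these were 99.0 and 43.2%. Of the genes with an H3K27ac peak in list 2, list 1 also had one in 97.3% of the high class and in 30.6% of the silent class, so the lists often marked different silent genes.

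The height of the peaks moved less than their presence. The fold deposited with each peak is the authors', and its level differs between lists. Where a smallest fold is given for a gene, it is the lowest of its values in the 3 ATAC lists, used to order genes and not to compare lists. The median highest ATAC fold at an end in list 1 was 6.69 in silent, 10.1 in low, 12.4 in middle and 12.4 in high genes with a peak, and lists 2 and 3 gave 5.58 and 6.36 in silent against 11.2 and 11.6 in high genes. In H3K27ac list 1 the median fold rose from 3.16 in silent to 5.61 in high genes. In list 2 it was 3.45 in silent genes and 3.59 in each of the other classes. Among non-silent genes with a peak, fold and TPM had a rank correlation of 0.168 to 0.196 for ATAC (12396 to 12421 genes), 0.227 for H3K27ac list 1 (9497 genes) and 0.0350 for list 2 (2638 genes). These are descriptions over genes of the same libraries.

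The peaks lay at the start of the gene rather than its far end. Strand could be read from the RefSeq promoter table for 17002 genes, and spans over 2000 bp were compared. In high genes 92.3 ± 0.0402% (SD, n = 3 lists) had an ATAC peak at the start and 11.7 ± 0.0696% at the far end. In silent genes these were 26.9 ± 0.282% and 7.52 ± 0.102%. Windows of the same size placed 20 kb outside either end had a peak in 11.7 ± 0.246% of silent and 23.8 ± 0.305% of high genes. For H3K27ac list 1, 83.3% of high genes had a peak at the start, 9.63% at the far end and 15.8% in the outer windows. Silent genes had 5.27% at the start, 3.07% at the far end and 6.58% in the outer windows. The outer shares count both windows of every gene in the class, so they are not matched to the single ends. They can be set beside the shares at either end of all genes in the class. For H3K27ac these were 6.43% at the ends and 6.58% outside for silent genes in list 1, and 3.25 and 2.94% in list 2. In high genes they were 84.5 and 15.8% in list 1, and 23.5 and 4.61% in list 2. For ATAC the means were 25.7 and 11.7% in silent genes. H3K27ac was thus about as frequent 20 kb outside silent genes as at their ends.

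**Figure D3:**
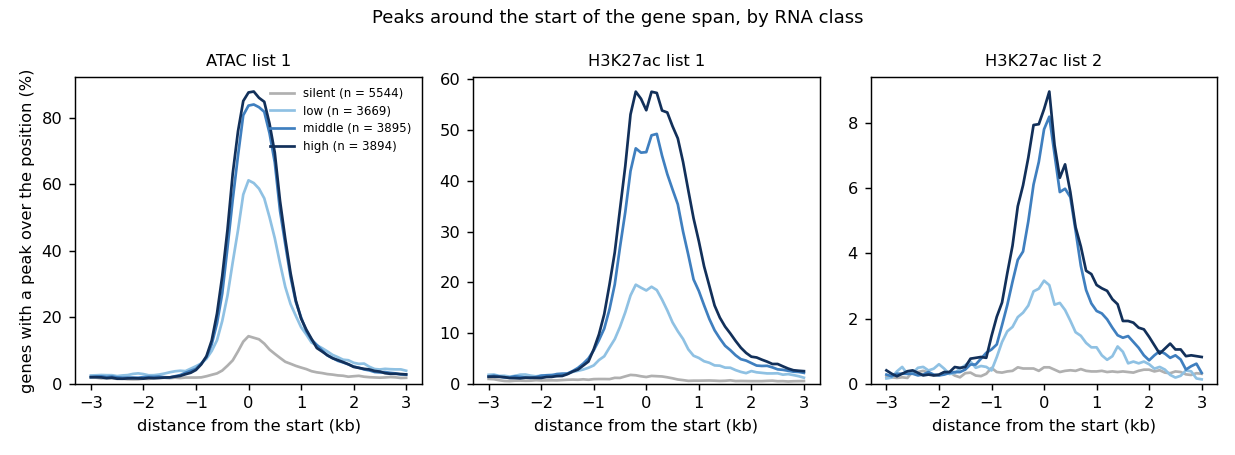
Percentage of genes with a peak over each position (vertical axis) from 3000 bp before to 3000 bp after the start of the gene span, by RNA class, in ATAC list 1, H3K27ac list 1 and H3K27ac list 2; vertical scales differ. ATAC covers 87.6% of high and 14.3% of silent starts, and the H3K27ac curve of high genes in list 1 dips at the start, to 53.9% from 57.6% at 200 bp before it.

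In the plot of peaks around the start, H3K27ac of high genes in list 1 was broader than the ATAC peak. It covered 53.9% of starts, less than the 57.6% at the position 200 bp upstream, and the ATAC share was 87.6% at the start itself. At 3000 bp on either side ATAC covered 1.80 to 3.92% of genes in every class in list 1. Silent genes had a small ATAC summit, 14.3% at the start, and their highest H3K27ac share in list 1 was 1.75%.

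Ribosomal protein genes and genes of RNA binding, chaperones and the cytoskeleton were among the 25 most abundant RNAs. Eef1a1 stood at 5685 and 7737 TPM, with ATAC folds of 10.8, 9.29 and 10.1 and an H3K27ac fold of 6.57 in list 1. Clu, encoding the secreted chaperone clusterin, stood at 4537 and 5786 TPM. Then came H3f3b (3019 and 4756 TPM), the polyubiquitin gene Ubb (2987 and 3727 TPM), the ribosomal protein gene Rps19 (2834 and 3360 TPM), the splicing factor gene Hnrnpa2b1 (3410 and 2384 TPM) and Ftl1 (2529 and 3210 TPM), which encodes the ferritin light chain. Replicate 2 was higher than replicate 1 in all of the 25 but Hnrnpa2b1, Hspa8 and Col2a1. Among the 25 were also Id2 and Col2a1. Id2, an inhibitor of basic helix-loop-helix factors and a member of the prosensory list, stood at 1585 and 1944 TPM. Col2a1, encoding the type II collagen chain, stood at 1742 and 1520 TPM.

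Of these genes H3f3b alone had no ATAC peak at an end, and the rest were open. The smallest ATAC fold over lists ranged from 3.22 in Actg1, the cytoplasmic gamma actin gene, to 15.3 in Hspa5, an endoplasmic reticulum chaperone gene. Hnrnpk, encoding an RNA-binding protein, stood at 2047 and 2430 TPM with an open start and no H3K27ac peak in either list. Genes with an H3K27ac peak in both lists included Rps19, Rpl32, Id2, Rps14, Col2a1 and Rpl3. All of the 25 had an H3K27ac peak in list 1, H3f3b and Hnrnpk apart.

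Genes of 3 housekeeping complexes were mostly in the high class. Of 86 cytosolic ribosomal protein genes 83 were high, 79 (91.9%) open, and 78 (90.7%) had H3K27ac in list 1 (28 in list 2), beside 93.0 and 84.5% of all high genes. The 3 silent members were Rpl3l, known from muscle, and Rpl10l and Rpl39l, known from testis. Rpl3l had an open far end with a smallest fold of 15.1 and H3K27ac in list 1, within 1000 bp of an end of Msrb1 (2.11 TPM), and the other two had no ATAC peak. Of 39 proteasome genes 33 were high and 38 (97.4%) open. Its 3 silent members were the immunoproteasome genes Psmb8 and Psmb9 and the thymoproteasome gene Psmb11, and all were open, Psmb9 with H3K27ac in list 1. The smallest folds were 15.8 for Psmb9, 11.8 for Psmb8 and 2.73 for Psmb11, and the ends of Psmb8 and Psmb9 lay near Tap1 (1.501 TPM). Of 80 nuclear genes of the respiratory chain 70 were high and 5 silent: Cox6a2, Cox7b2, Cox8b, Cox8c and Ndufa4l2. Ndufa4l2 alone of these was open.

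Of the high genes, 286 (5.99%) had no ATAC peak in any list at an end of the span. A RefSeq start was listed for 244 of them, and 218 of these (89.3%) had an open start elsewhere in the span. H3f3b was such a case: its start at position 116024504 of chromosome 11 had a smallest fold of 13.3 although the ends of its span had none. Among the other genes of highest TPM in this group were Npm1 (913 and 1015 TPM), encoding nucleophosmin, Rps2, App, Fth1, Hnrnpf, Spcs2, Plod2 and Ccnl2. For Rps2, App, Fth1, Hnrnpf, Spcs2 and Ccnl2 a listed start was open, with smallest folds from 6.18 in App to 15.6 in Spcs2. For Npm1 and Plod2 no start was listed, and peaks inside their spans had folds of up to 13.6 and 8.28. With windows at every listed start in place of the span ends, a choice made after seeing the data, 42 of the 3894 high genes with a listed start had no ATAC peak; the other high genes did not enter. The absence of a peak at a span end went, for most of these genes, with an open start elsewhere in the span.

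Silent genes split into 1465 open and 5363 others. Of the open ones, 1151 (16.9% of the silent class) had no H3K27ac at an end in list 1 and 314 (4.60%) had. Silent receptor families mostly had no open end. Of 1058 silent olfactory receptor genes 13 were open, of 304 silent vomeronasal receptor genes 1, and of 54 silent keratin-associated protein genes 1. Without the olfactory, vomeronasal, trace amine and bitter taste receptor, keratin-associated and defensin families, 27.3% of silent genes were open.

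**Figure D4:**
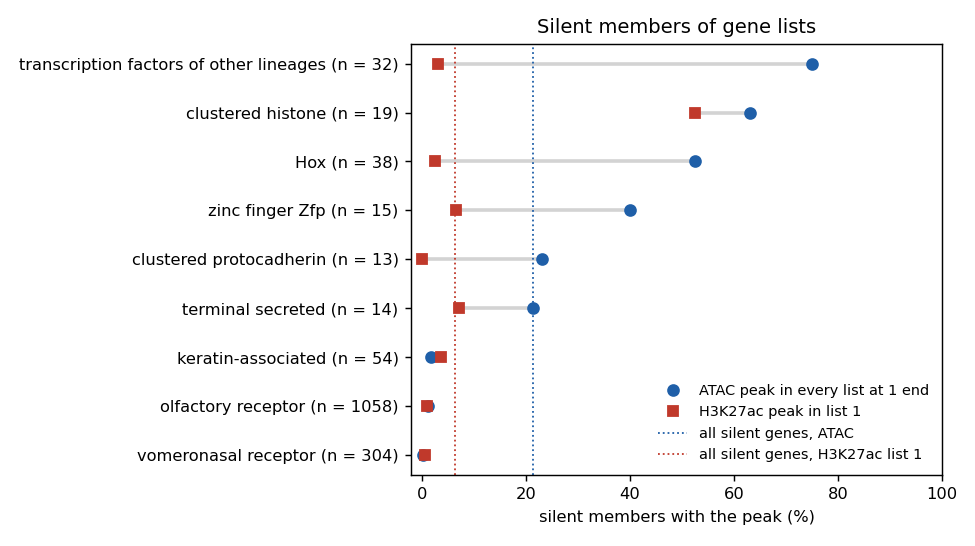
Percentage of the silent members (horizontal axis) of 9 gene lists (vertical axis, with their number) with an ATAC peak in every list at 1 end (circles) or an H3K27ac peak in list 1 (squares), with dotted lines for all silent genes (21.5 and 6.43%). Transcription factors of other lineages stand at 75% open against 3.13% acetylated, clustered histone genes at 63.2 against 52.6%, and receptor families lie near 1% or below for both.

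Silent regulators of other lineages were often open. Of 38 transcription factors of other lineages 32 were silent, and 24 of these (75%) were open, 1 of them with H3K27ac in list 1 and none in list 2. Examples with no RNA count were Sim1, a factor of the hypothalamus and kidney (smallest ATAC fold 11.2), Pax1, a factor of the sclerotome (7.25), Cebpa (7.21), Pdx1, a factor of the pancreas (6.20), and the muscle factor Myod1 (6.18). Myog, a further muscle factor, was the member with H3K27ac. Among the silent members that were not open were Tbx5, Gata4, Hand1, Hnf4a, Nkx2-1, Myf5 and Otp. Of 39 Hox genes 38 were silent and 20 of these were open, led by Hoxb8 (8.56, with RNA at 0 and 0.0376 TPM), Hoxd1 (7.67) and Hoxa10 (7.36). Hoxa10 alone of the Hox genes had H3K27ac, in list 1. Together 44 of 70 such silent factors were open (62.9%), beside 21.0% of the other 6758 silent genes. Of the open ones, list 1 acetylated 4.55%, beside 22.0% of the other open silent genes. Their folds were not high: the median smallest fold was 3.82, against 5.89 in the other open silent genes.

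Genes of hair cell differentiation were open about as often as genes in general. None of 21 hair cell genes was high, 8 were silent and 13 (61.9%) were open, beside 64.5% of all ranked genes. Of the 8 silent ones 2 were open, 25% beside 21.5% of silent genes. H3K27ac in list 1 marked 9.52% of the 21, beside 47.0% of all ranked genes. List 2 marked 1 of the 21, beside 13.52% of all ranked genes. These H3K27ac shares are not matched for RNA class. The members that were not silent were 10 low and 3 middle genes. List 1 marked 39.1% of all low, 75.3% of all middle and 6.43% of all silent genes. Atoh1, the factor that starts hair cell differentiation, stood at 2.74 and 5.66 TPM with a smallest ATAC fold of 6.23 and no H3K27ac peak in either list. Pou4f3, which acts after it, stood at 0.390 and 1.36 TPM with a fold of 4.52. Lhx3 had no count and a fold of 12.1, with an end of Qsox2 (12.8 TPM) within 1000 bp. Gfi1, at 0 and 0.196 TPM, had an ATAC peak in 1 list and Pvalb and Ocm, genes of mature hair cells, had none. All 16 neuronal genes were open and 3 (18.8%) had H3K27ac in list 1, beside 64.5 and 47.0% of all ranked genes. List 2 marked 1 of the 16, beside 13.52% of all ranked genes. The 16 were 4 silent, 9 low, 2 middle and 1 high, so these shares are not matched for RNA class either. The 4 silent ones were Neurod1 (0 and 0.0362 TPM), Neurod4, Neurog1 and Prph, with folds from 2.09 in Prph to 16.8 in Neurod4. Of 16 supporting cell and tectorial genes 7 were high and 14 open. Tecta, a gene of the tectorial membrane, stood at 461 and 497 TPM and had H3K27ac in both lists.

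Clustered histone genes were mostly open, and mostly acetylated in list 1, with little RNA in these libraries. Of 63 such genes 19 were silent and 40 low. In all, 54 (85.7%) were open and 47 (74.6%) had H3K27ac in list 1, beside 64.5 and 47.0% of all ranked genes. List 2 marked 13 of the 63, beside 13.52% of all ranked genes. Of the silent ones 12 (63.2%) were open and 10 (52.6%) had H3K27ac in list 1, beside 21.5 and 6.43% of all silent genes. List 2 marked 5 of the 19, beside 3.25% of all silent genes. Both lists marked an open end in 4 (H3c7, H4c11, H4c6 and H4c1), beside 0.776% of all silent genes. H3c7 had no count and ATAC folds of 10.7, 10.6 and 13.0. H2bu2 was the single high member, at 45.1 and 60.4 TPM. RNA was selected for poly(A), per the labels' protocols, and the mRNAs of replication-dependent histone genes lack a poly(A) tail, so the class of these genes does not show how much of their RNA the cells held. These genes lie in clusters, so windows of neighbours can share a peak.

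Silent genes with an open end acetylated in both lists numbered 53 (0.776% of the silent class), beside 325 low (6.81%), 864 middle (18.1%) and 1008 high genes (21.1%), and 10.6% of all ranked genes. The number rests on the H3K27ac lists: without list 1 it was 82 and without list 2 it was 285. Of the 53, 36 had no count in either library, and the rest had at most 5 counts in all. Rsph4a, a radial spoke gene of motile cilia, led with ATAC folds of 23.8, 22.9 and 27.9 and H3K27ac folds of 3.16 and 3.29; a count of 0 allows it 0.0990 and 0.0861 TPM. Tekt3 had ATAC folds of 22.5, 17.8 and 20.5 and H3K27ac folds of 3.16 and 4.19. Iqca had ATAC folds of 18.9, 19.8 and 20.0 and H3K27ac folds of 5.65 and 3.29. The median fold over all H3K27ac peaks was 3.08 in list 1 and 3.29 in list 2. The H3K27ac folds of Rsph4a in both lists, of Tekt3 in list 1 and of Iqca in list 2 were near that median. These genes are named because their ATAC folds were the highest. The middle one of the 53 was Ak9, with a smallest ATAC fold of 8.52, below the median of 10.7 over open high genes.

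By smallest ATAC fold Hepacam2 (18.5), with 5 and 0 counts, stood between Iqca and Tekt3, and after Tekt3 came Cdnf (16.4), encoding a secreted neurotrophic factor, and Wdr27, Tmem169 and Nek11 (15.1, 15.02 and 14.5). Snai2, which encodes the Slug repressor of epithelial genes, had 0 and 1 counts, a smallest ATAC fold of 14.5 and H3K27ac folds of 3.84 and 4.44. The 20 with the highest folds were completed by Fbxo47, Cmya5, Ssmem1, Zbed6, Stpg1, Tsks, Gmfg, Ccdc105, Npffr2, Aadat and Gbp3, with smallest folds from 14.01 down to 11.2. From the gene lists the 53 held Fcgr1, an Fc receptor gene of myeloid cells (smallest ATAC fold 3.82), the olfactory receptor gene Olfr25 and the 4 histone genes. They held no factor of the lists of other lineages or Hox genes.

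Several of the 53 ends lie beside an expressed gene. An end of an expressed protein-coding gene was within 1000 bp for 16 of them (30.2%). This held for 9.62% of all open silent genes, 1.49% of silent genes that were not open and 24.03% of open high genes. Cdnf has its start beside that of Hspa14 (64.8 TPM), Hepacam2 beside Vps50 (48.5 TPM) and Zbed6 beside an end of Zc3h11a (244.6 TPM), within whose span it lies. Wdr27 lies near an end of 1600012H06Rik (39.0 TPM), Tmem169 near Pecr (14.5 TPM), Nek11 near Aste1 (9.81 TPM) and Ak9 near Fig4 (11.0 TPM). Ssmem1, Stpg1 and Tsks also had such a neighbour. For all 16 a peak cannot be assigned to the silent gene. For 37 of the 53, Rsph4a, Iqca, Tekt3 and Snai2 included, no expressed gene's end lay that near and no expressed gene's span held the end. Of the 44 with a known strand, 32 had the marks at the start.

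**Figure D5:**
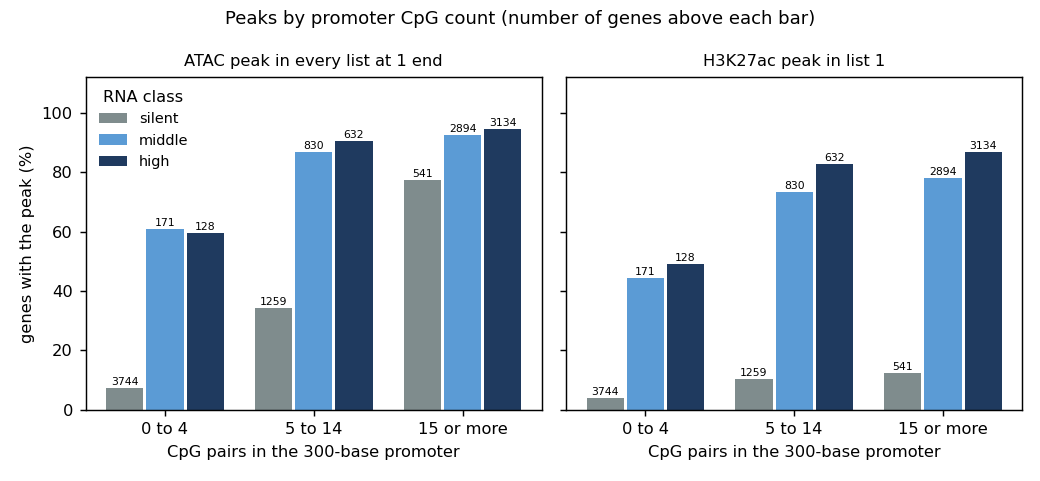
Percentage of silent, middle and high genes with an ATAC peak in every list at 1 end (left) or an H3K27ac peak in list 1 (right), by the number of CpG pairs in the 300-base promoter, with the number of genes above each bar. Silent genes go from 7.26 to 77.3% open across the bands but from 4.09 to only 12.4% acetylated.

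CpG content followed both RNA class and opening. The RefSeq promoter table, 250 bases before to 50 after a start, gave a sequence for 17002 of the 21151 genes. The median number of CpG pairs was 3 in silent (quartiles 1 and 6), 21 in middle (14 and 29) and 23 in high genes (16 and 30), over 81.2, 81.6 and 81.5% of these classes. The comparison is void for low genes, for open silent genes and for the silent transcription factors, because fewer than 80% of each had a sequence. Among silent genes with a sequence, 7.26% of the 3744 with up to 4 CpG pairs were open, 34.2% of the 1259 with 5 to 14, and 77.3% of the 541 with 15 or more. The high genes of these bands were 59.4, 90.3 and 94.5% open. H3K27ac in list 1 marked 4.09, 10.3 and 12.4% of the silent genes but 49.2, 82.8 and 86.7% of the high genes. List 2 marked 2.94, 4.05 and 3.88% of the silent and 14.1, 29.1 and 23.4% of the high genes. In list 2 the share was thus not highest in the band of 15 or more.

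The 53 silent genes with both marks had a median of 8 CpG pairs (44 genes with a sequence), between all silent and all middle genes. The sequence lies at the start, which was the marked end for 32 of these 44. For the others it does not describe the marked end. Tekt3 had 12 in its 300 bases, Iqca 13 and Cdnf 21. Short motifs were searched on both strands of the 300 bases. The letters TATAAA, the core of the TATA box, occurred in 24.8% of silent, 5.65% of middle and 6.45% of high promoters, and in 13.1% of all. GGGCGG, a core of the GC box which itself holds a CpG pair, occurred in 15.3, 67.3 and 68.8%, and in 47.1% of all. CCAAT occurred in 38.7, 38.9 and 40.1%, and in 38.9% of all, so its share hardly varied. CACGTG, the palindromic E-box, which also holds a CpG pair, occurred in 4.33, 9.94 and 11.5%, and in 8.03% of all. No motif searched lies within another, and median GC content was 46.7% in silent, 61.7% in middle and 61.7% in high promoters.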

How the data were processed

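RNA was poly(A)-selected from the sorted cells, per the labels' protocols. The deposited RNA tables give each Ensembl gene an expected count, an estimate of its reads, and an effective length, per the file headers. No source used here names the program behind these estimates. The authors deposited 1 peak list per library, not pooled. Each deposited peak has a fold (a ratio to local background), a −log10 p and a −log10 q. The score column of the deposited lists was not used. STAR, UMI-tools and MACS2, with no version, and the builds GRCm38 and mm10 stand in the submitters' processing notes. Every list reached down to a −log10 p of 2.00 to 2.04, a permissive limit, and the ATAC lists hold several summits per interval.

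TPM was computed here from each count divided by effective length, scaled to 1000000 per library. Genes were matched to RefSeq (GRCm38.p6) by symbol (20758) or a unique synonym (393). Windows were 500 bp on each side of both ends of the span, because that table gives no strand, with an overlap of 1 bp or more. Shares are given per list, with SD over lists. The design names no test across genes, so no p-value is given. No mitochondrial gene entered. The peak functions were tested on simulated intervals. Python 3.11.15, pandas 2.3.3, numpy 2.4.6 and matplotlib 3.10.9 were used. The rule for named genes took Cdkn1b and Sox2, the 25 most abundant RNAs, the 20 silent genes with both marks and the highest smallest ATAC fold, 10 high genes without ATAC, 3 genes on each side of the silent limit, and members of 23 gene lists; some genes that the rule takes are not reported here. The members and lists were chosen with earlier results of these data known. The alternatives changed the windows, peak limits, RNA limits, genes and libraries.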

Additional observations from a re-analysis of the deposited data

How the results depend on the processing

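In all 22 other settings the shares of open genes and of genes with H3K27ac in list 1 (in list 2 where list 1 was left out) rose from class to class. Not every setting could change both shares. Leaving out an H3K27ac library could not move the ATAC shares. The list 1 shares could not move when an ATAC library or H3K27ac list 2 was left out, or when 1 of 2 H3K27ac lists sufficed. High minus silent genes differed by 71.5 percentage points for ATAC in every list at 1 end. With windows of 250 and 2000 bp this was 72.6 and 65.6, with summits in the window 72.0, with a −log10 q of at least 2 it was 72.4, and with at least 2 of 3 lists 68.6. With starts only it was 74.4, with lists of equal length 71.7, with silent genes without any count 75.2, and with a limit of 1 TPM 63.0. Without the receptor and terminal families it was 65.7, on autosomes 69.99, without genes with a near neighbour 72.2, and with every listed RefSeq start, chosen after seeing the data, 79.9. Leaving out each RNA or ATAC library gave 68.7 to 70.7, all below the main value. For H3K27ac in both lists the difference was 20.6. With 1 list sufficing it was 76.5, with a −log10 q of at least 2 it was 10.9, with 2000 bp windows 32.0, and leaving out each library gave 20.3 to 78.1. The count of 53 silent genes became 30 and 141 with windows of 250 and 2000 bp, 25 with −log10 q of at least 2, 345 with fewer lists required, 34 with starts only, 132 under 1 TPM, 32 without near neighbours and 31 with every listed start. Leaving out each library gave 53 to 285. The count of 286 high genes without ATAC became 85 with 2000 bp, 42 with every listed start, where only 3894 of the 4775 high genes could enter, and 275 to 296 without a library. The cause was not tested. No paired analysis was possible because the results come from no test. The depth behind the peak lists is unknown, and a gene without a count may lie above the silent limit.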

Other observations

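Genes of motile cilia, the beating cilia built on an axoneme with dynein arms and radial spokes, were mostly in the low class. Because Rsph4a, Tekt3 and Ak9 stood among the silent genes with both marks, a list of 55 such genes was written after those values had been seen, so its counts are a description. Of 52 measured members 8 were silent, 39 low, 5 middle and none high, with a summed level of 127 and 125 TPM in the RNA replicates. In all, 40 (76.9%) were open and 27 (51.9%) had H3K27ac in list 1, beside 64.5 and 47.0% of all ranked genes. Of the 39 low members 29 (74.4%) were open, about the share of all low genes (72.4%), and 21 (53.8%) had H3K27ac in list 1, beside 39.1%. The median smallest ATAC fold of the open low members was 13.1, beside 8.51 for all open low genes and 10.7 for all open high genes. Foxj1, the factor that directs motile ciliogenesis, stood at 0.912 and 0.302 TPM with a smallest fold of 9.78 and H3K27ac in both lists. Dnah11, encoding a dynein heavy chain, stood at 0.226 and 0.0486 TPM with a fold of 21.3. This was the highest smallest fold of the open low members, and the lowest was 3.53. Without the 3 genes that prompted the list, 3 of 5 silent members were open, 1 of them with H3K27ac in list 1. None of the 5 had H3K27ac in list 2. The only silent members open and acetylated in both lists were thus the 3 that prompted the list.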
